A study of Mus musculus with 9 samples.

Results

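The Egr genes and the genes of their Nab corepressors were followed in RNA from area CA1 of the mouse hippocampus. The members were chosen by symbol, with earlier results of these data known: Egr1, Egr2, Egr3, Egr4, Nab1 and Nab2. All 6 have 1 row each in the deposited table, among 18813 rows with a usable name and a value above 0, and all 6 passed the filter on low values that left 12327 genes for testing. RNA was sequenced from 9 libraries in 3 groups of 3 biological replicates. In the trained group, mice carried an adeno-associated virus (AAV, a vector that brings a gene into cells) with a short hairpin RNA (shRNA) against H2A.Z, a variant of histone H2A, and had been trained by contextual fear conditioning, which pairs a chamber with a foot shock. In the naive group, mice carried the same shRNA and were labelled naive, with no training named. In the control group, mice carried an AAV with a scrambled shRNA; their training is not stated, nor is the time between training and dissection, the promoter of the hairpin, the cell types that the virus reached, or whether animals were pooled. All mice were C57BL/J6 and 9 to 12 weeks old.

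Egr proteins are transcription factors with zinc fingers that bind GC-rich sites. Their genes are immediate early genes: in neurons, calcium entry and ERK kinase signalling switch them on within minutes of activity, through serum response factor (SRF) at CArG boxes and through CREB at cAMP response elements. Egr1, also named Zif268, is widely used as a mark of recently active hippocampal neurons and is needed for lasting forms of memory. Nab1 and Nab2 bind a domain of Egr1, Egr2 and Egr3 and repress their activity, in part through the NuRD chromatin complex. Nab2 is itself induced by Egr factors, which closes a negative feedback loop.

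For the members whose values stood apart in the trained libraries and that have a promoter window in the RefSeq table (GRCm38.p6), the 250 bases before the annotated start are shown, since these genes are known for induction through promoter elements. Capitals mark CArG boxes and the letters TGACG, the core of a cAMP response element, on either strand (CGTCA where it lies on the opposite strand). The strand shown is that of the gene, 5′ to 3′.
Egr2, chr10:67537619-67537868, plus strand: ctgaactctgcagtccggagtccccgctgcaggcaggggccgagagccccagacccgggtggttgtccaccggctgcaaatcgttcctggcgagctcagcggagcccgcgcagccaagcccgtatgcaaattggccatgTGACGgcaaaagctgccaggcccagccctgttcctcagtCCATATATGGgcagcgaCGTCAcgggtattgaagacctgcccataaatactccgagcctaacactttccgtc
Egr4, chr6:85513590-85513839, minus strand: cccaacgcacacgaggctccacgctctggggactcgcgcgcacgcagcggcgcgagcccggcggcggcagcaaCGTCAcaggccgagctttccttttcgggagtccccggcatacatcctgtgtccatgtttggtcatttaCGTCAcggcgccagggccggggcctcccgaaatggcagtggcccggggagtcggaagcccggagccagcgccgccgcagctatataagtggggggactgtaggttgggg
Nab2, chr10:127666704-127666953, minus strand: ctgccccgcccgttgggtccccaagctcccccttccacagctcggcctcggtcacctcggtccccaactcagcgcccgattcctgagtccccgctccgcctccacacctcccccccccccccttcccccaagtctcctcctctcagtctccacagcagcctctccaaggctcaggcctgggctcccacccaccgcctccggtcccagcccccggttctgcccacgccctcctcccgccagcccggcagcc

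The Egr2 window held 1 CArG box, 72 to 63 bases before the start, with TGACG beginning 111 bases before it and, on the opposite strand, lying at 55 to 51 bases. RefSeq gives Egr2 5 windows, and the one printed is the first that held both motifs. It was thus picked for its motifs, and it lies inside the annotated Egr2 span given below. The window at the start of that span, 67535249 to 67535498, held no match. The window from 67537316 to 67537565 held a CArG box without TGACG. The Egr4 window held TGACG on the opposite strand, at sites that end 173 and 105 bases before the start. No match to these motifs lay in the Nab2 window, which lies inside the annotated Nab2 span given below and not at its start. Among 32851 RefSeq windows of the same length, 1.47% held a CArG box and 17.8% held TGACG. Next, 2 letter strings bound by Egr factors, GCGTGGGCG and GCGGGGGCG, were searched on both strands too. The Nab1 window, which is not printed, held GCGTGGGCG on the opposite strand at 141 to 133 bases and again on the gene's strand nearer the start, GCGGGGGCG at 38 to 30 bases, and TGACG at 123 to 119 bases on the opposite strand. The 2 Egr strings were found in 0.536% and 2.57% of all windows and in none of the printed ones. Egr1 and Egr3 have no entry in the table. A match is a description of the letters and was not tied to any binding data.

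Levels are given as deposited by the authors, in FPKM (fragments divided by transcript length and by the mapped total), so that levels of different genes can be compared per length. Depth is not given as counts. The spacing of the lowest values in each library put 1 FPKM at an estimated 18.4 to 26.4 fragments per kilobase, and depth lay between 0.872 and 1.26 times that of control replicate 2. On this estimate, which takes the longest annotated transcript as the length of a gene, Egr2 rested on about 55.9 to 289 fragments a library. Nab1 rested on 455 to 717 and Egr1 on 5629 to 12179. Egr2 is thus the member with the fewest fragments and the least precise count. The targeted gene H2afz stood at 26.0 ± 2.31 FPKM in trained, 27.0 ± 1.63 in naive and 27.1 ± 1.43 in control libraries (SD, n = 3 each). The log2 fold change was -0.03 for both H2A.Z shRNA groups against control (SE 0.06, limma adjusted p = 0.844). H2afv, which encodes the other H2A.Z protein, stood at 14.2 ± 1.04 FPKM in trained, 15.6 ± 0.217 in naive and 15.03 ± 0.993 in control libraries (SD, n = 3 each). It was lower in every trained than in every naive library, as were 9.16% of all genes (log2 fold change -0.14, limma adjusted p = 0.606). For both groups against control it gave -0.01 (limma adjusted p = 0.939). Neither mRNA was thus detectably lower in the libraries labelled H2A.Z shRNA than in control ones, and directions below are between groups as labelled. In bulk tissue, fewer cells of a type and less RNA per cell cannot be told apart.

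Egr1, Egr2, Egr4 and Nab2 were higher in each of the 3 trained libraries than in every naive library, as were 5.79% of all genes tested, by ratios of mean FPKM between 1.14 and 2.07. Egr2, Egr4 and Nab2 were also higher in each trained library than in every control library, as were 6.40% of all genes. Egr3 and Nab1 overlapped between trained and naive libraries and between trained and control libraries. None of the 6 genes passed the threshold of 0.05 in any comparison after adjustment over all 12327 genes, so these are differences in the measured values that did not reach the call.

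Across the 9 libraries the order of levels was nearly fixed. Egr1 averaged 86.2 FPKM, Egr3 44.9, Nab2 15.5, Egr4 13.4, Nab1 6.62 and Egr2 2.503. Egr1 was above Egr3, Egr3 above Nab2, Egr4 above Nab1, and Nab1 above Egr2 in 9 of 9 libraries. The neighbours Nab2 and Egr4 were closer: Nab2 was the higher in 7 of 9. Egr1 stood above 95.4% of the genes tested and Egr3 above 89.2%, whereas Egr2 stood above 14.6%.

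Egr1 lies on chromosome 18, 34859823 to 34864984, plus strand (GENCODE M21 on GRCm38, the assembly also called mm10). It stood at 95.9, 109.4 and 126 FPKM in the trained libraries, at 58.7, 65.1 and 76.6 in the naive libraries and at 98.5, 72.7 and 72.6 in the control libraries. All trained libraries were above all naive ones, while control replicate 1 lay between trained replicates 1 and 2. The log2 fold change of trained against naive, on the scale of FPKM + 1 used for all fold changes here, was 0.72 (SE 0.15, unadjusted p = 0.00105, limma adjusted p = 0.467). This was the 26th smallest p of the 12327 genes tested. Against control, trained libraries gave 0.44 (SE 0.15, limma adjusted p = 0.637). Naive libraries against control gave -0.27 (SE 0.15, limma adjusted p = 0.412), with a confidence interval from -0.61 to 0.07, and -0.13 without control replicate 1.

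**Figure D1:**
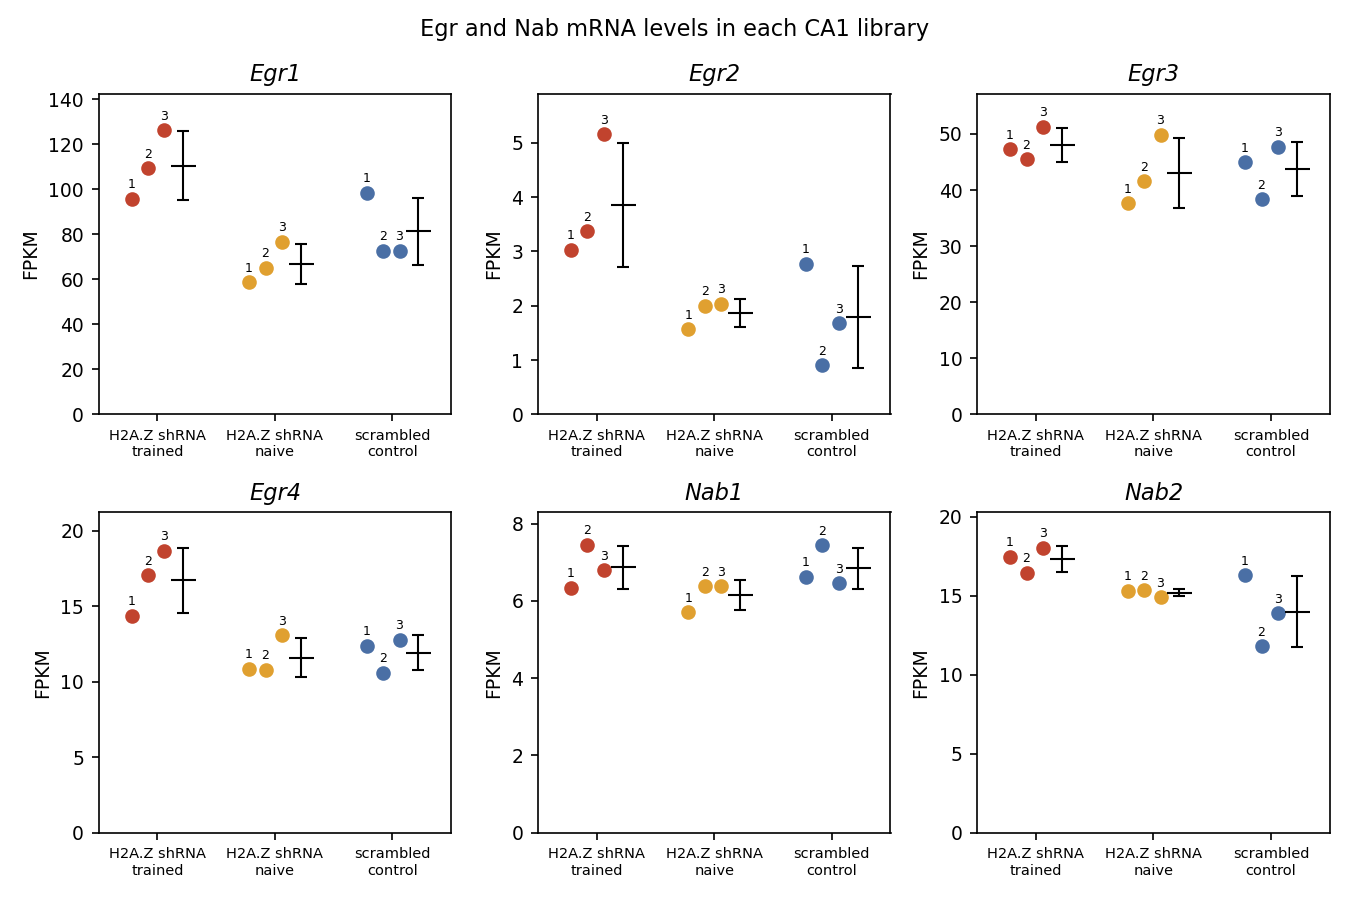
FPKM (y axis, from 0) of the 6 genes in each library; points are libraries numbered by replicate, and the bars beside them give the mean and SD of 3 libraries. The trained points of Egr1, at 95.9 to 126 FPKM, lie above the naive points at 58.7 to 76.6, while those of Egr3 and Nab1 overlap with both other groups.

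Egr2, known as Krox20 for its role in the hindbrain and in myelinating Schwann cells and expressed at a low level in neurons, lies on chromosome 10, 67535475 to 67542188, plus strand. It stood at 3.04, 3.37 and 5.16 FPKM in trained, 1.56, 2.002 and 2.04 in naive and 2.77, 0.902 and 1.68 in control libraries. All trained values were above all others, and the control libraries varied the most, with an SD of 52.6% of their mean. The ratio of mean FPKM was 2.07 for trained against naive and 2.16 for trained against control. On the scale of FPKM + 1, which understates changes of such a low gene, the log2 fold changes were 0.74 (SE 0.24, limma adjusted p = 0.581) and 0.83 (SE 0.24, limma adjusted p = 0.6001). Naive and control libraries had close means, 1.87 ± 0.262 and 1.79 ± 0.940 FPKM (SD, n = 3 each), but the confidence interval of their log2 fold change ran from -0.46 to 0.65. The ranges of summed Schwann cell markers overlapped among the 3 groups. These 7 genes summed to 22.5 to 24.6 FPKM in trained, 21.2 to 24.8 in naive and 21.96 to 27.3 in control libraries.

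Egr4, a member of the family without the domain that Nab proteins bind, lies on chromosome 6, 85511121 to 85513589, minus strand. It stood at 14.4, 17.1 and 18.7 FPKM in trained, 10.9, 10.8 and 13.1 in naive and 12.4, 10.6 and 12.8 in control libraries. All trained libraries were above all others, and the naive and control ranges overlapped. The log2 fold change was 0.49 for trained against naive (SE 0.11, unadjusted p = 0.00174, limma adjusted p = 0.556) and 0.45 for trained against control (SE 0.11, unadjusted p = 0.00291, limma adjusted p = 0.504). These were the 34th and the 68th smallest p of the 12327 genes. For naive against control it was -0.04 (SE 0.11, limma adjusted p = 0.885).

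Egr3, an activity-induced factor needed for muscle spindle development, lies on chromosome 14, 70077203 to 70082614, plus strand. It stood at 47.3, 45.5 and 51.3 FPKM in trained, 37.7, 41.6 and 49.8 in naive and 44.97, 38.4 and 47.8 in control libraries. The 3 groups overlapped. Trained against naive gave a log2 fold change of 0.16 (SE 0.11, limma adjusted p = 0.716), with a confidence interval that corresponds to 0.941 to 1.33 times the naive level of FPKM + 1. Trained against control gave 0.14 (SE 0.11, limma adjusted p = 0.724). Leaving out naive replicate 1 gave 0.074 for the first of these, leaving out naive replicate 3 gave 0.27, and leaving out control replicate 2 gave 0.049 for the second.

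Nab2 lies on chromosome 10, 127660918 to 127668568, minus strand. Its annotated span overlaps Stat6 by 40 bases and Nemp1 by 1668 bases, both on the opposite strand; libraries were directional per the labels, but whether quantification used the strand is not stated. Nab2 stood at 17.5, 16.5 and 18.0 FPKM in trained, 15.3, 15.3 and 14.9 in naive and 16.3, 11.8 and 13.9 in control libraries. All trained libraries were above all others, by a small margin over control replicate 1. The naive libraries lay close together, with an SD of 1.54% of their mean, against 16.1% in the controls. The log2 fold change was 0.18 for trained against naive (SE 0.10, limma adjusted p = 0.639), 0.30 for trained against control (SE 0.10, limma adjusted p = 0.636) and 0.12 for naive against control (SE 0.10, limma adjusted p = 0.563).

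Nab1, the other corepressor, lies on chromosome 1, 52457294 to 52500679, minus strand. It stood at 6.34, 7.46 and 6.80 FPKM in trained, 5.70, 6.38 and 6.39 in naive and 6.63, 7.44 and 6.46 in control libraries. Each naive library was below every control library, while the trained libraries overlapped with both groups. The log2 fold change was 0.14 for trained against naive (SE 0.07, limma adjusted p = 0.651), 0.00 for trained against control (SE 0.07, limma adjusted p = 0.989) and -0.13 for naive against control (SE 0.07, limma adjusted p = 0.427).

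**Figure D2:**
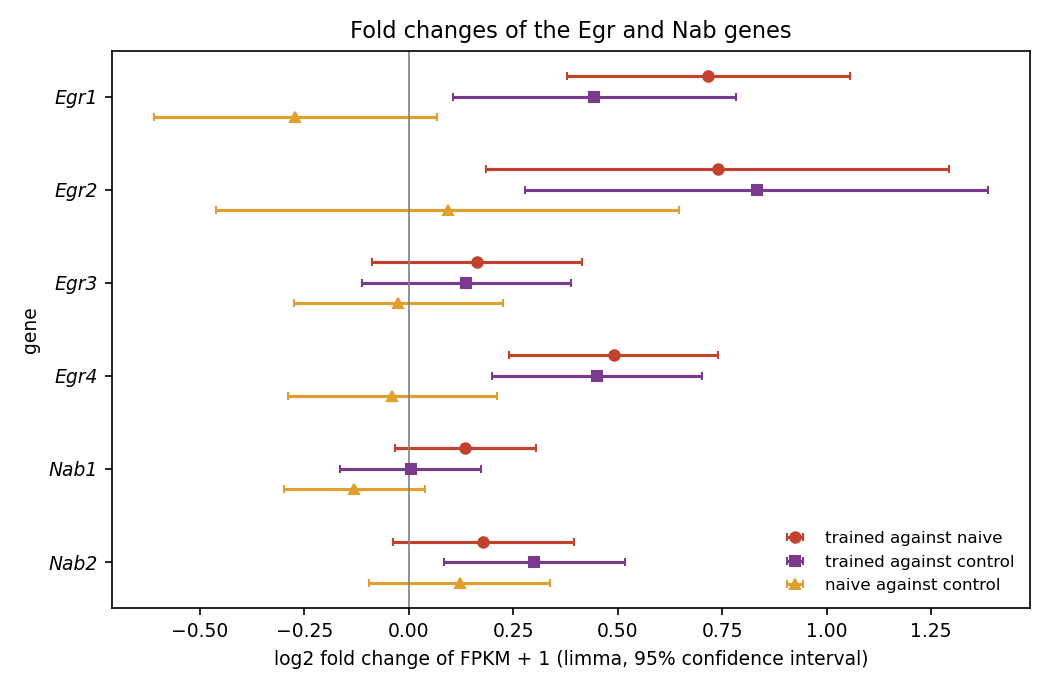
Log2 fold change of FPKM + 1 (x axis) of each gene in 3 comparisons, with points for limma estimates and bars for 95% confidence intervals that are not adjusted for the number of genes. The intervals of Egr1, Egr2 and Egr4 lie above 0 in both comparisons of trained libraries and include 0 for naive against control.

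In trained against naive libraries, 0 of 6 members passed after adjustment, where 0.00811% of all genes did, that is 1 gene, Sgk1. Ranges did not overlap and were higher in trained libraries for 4 of 6 members, against 5.79% of all genes, and were lower for none, against 9.16%. Egr1, Egr2 and Egr4 had an unadjusted p under 0.05 and a higher level, against 2.74% of all genes (8.27% in either direction). All 6 estimates were above 0, against 41.3% of all genes, and their median was 0.33 where that of all genes was -0.02. Members were chosen with earlier results of these data known and share the same libraries, so shares here and below are descriptions only.

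In trained against control libraries, 0 of 6 passed, against 0.00811% of all genes, again Sgk1. Ranges did not overlap and were higher for 3 of 6, against 6.40%, and were lower for none, against 6.08%. Egr1, Egr2, Egr4 and Nab2 had an unadjusted p under 0.05 and a higher level, against 3.92% of all genes (7.71% in either direction). All 6 estimates were above 0, against 47.2% of all genes, although that of Nab1 was 0.00 and changed sign with the processing. The median was 0.37 and that of all genes -0.01. These 2 comparisons share the trained libraries.

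In naive against control libraries, 0 of 6 passed, against 0.00% of all genes. No member had an unadjusted p under 0.05 in limma, where 15.5% of all genes did and 9.81% did with a higher level. No member was higher without overlap, against 11.2%, and Nab1 was lower without overlap, against 8.23%. Estimates were above 0 for 2 of 6, Egr2 and Nab2, against 55.1%, with a median of -0.03 and 0.02 for all genes.

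With both H2A.Z shRNA groups joined against control, 0 of 6 passed, against 0.00% of all genes. No member had ranges that did not overlap, against 4.93% of all genes (2.94% higher). Estimates were above 0 for 5 of 6, against 52.1%. Nab2 had a log2 fold change of 0.21 (SE 0.08, limma unadjusted p = 0.0315, limma adjusted p = 0.385). It was the sole member with an unadjusted p under 0.05, which 7.11% of all genes reached with a higher level and 12.4% in either direction. An exact two-sided permutation test cannot go below 0.1 with 3 libraries against 3, and it gave 0.1 for each member whose ranges did not overlap. With 6 against 3 there are 84 assignments, and the smallest exact permutation p was 0.0714, for Nab2.

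**Figure D3:**
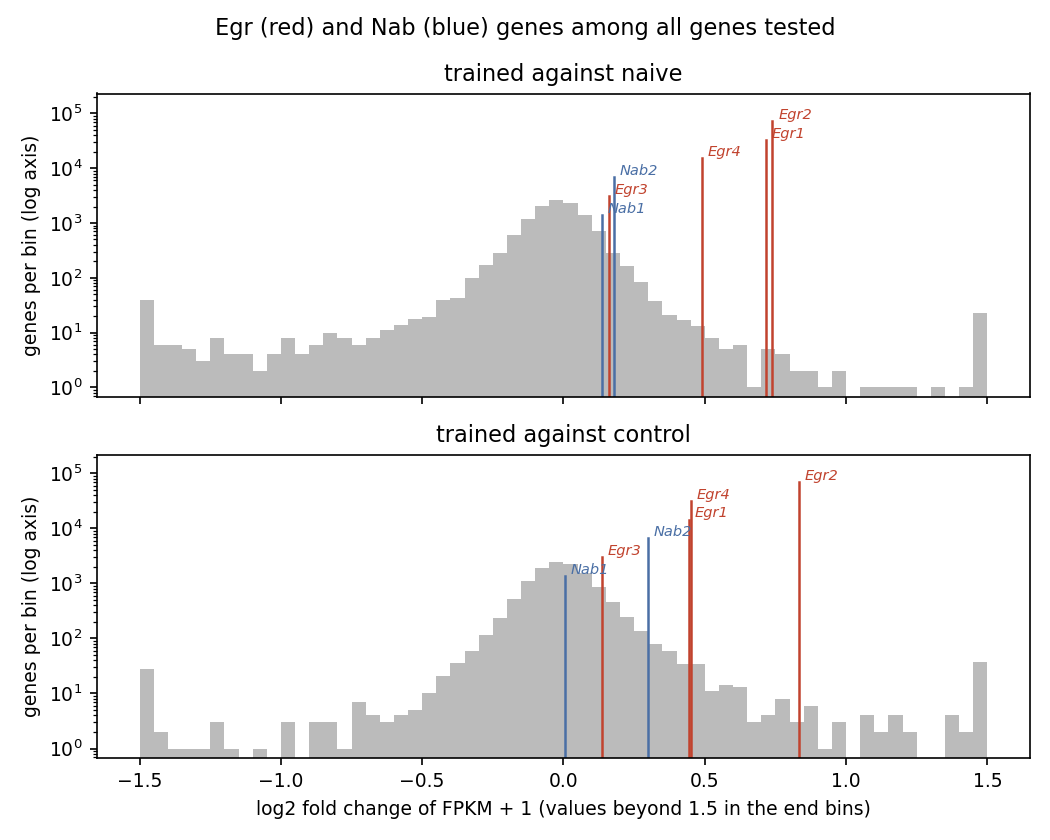
Histogram of the log2 fold change of FPKM + 1 over 12327 genes (x axis; y axis, genes per bin on a log scale), with lines at the 4 Egr genes (red) and the 2 Nab genes (blue). Egr1 at 0.72, Egr2 at 0.74 and Egr4 at 0.49 lie in the thin right tail of trained against naive, while Egr3 at 0.16 and Nab1 at 0.14 lie at the edge of the bulk.

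Libraries of a group did not move alike, and the same libraries were high for several members. Trained replicate 3 held the highest level of Egr1, Egr2, Egr3, Egr4 and Nab2 among the 9 libraries. Control replicate 1 was the highest control for Egr1, Egr2 and Nab2, and control replicate 2 was the lowest library of all for Egr2, Egr4 and Nab2. FPKM summed over all rows kept ran from 296327 in control replicate 2 to 442251 in trained replicate 3. This total was 387035 in control replicate 1 and 408323 in naive replicate 3. Trained replicate 2, with Egr1, Egr2 and Egr4 above every naive and control library, had a total of 322809. Control replicate 3 had 320167 and naive replicate 2 had 325265. With median-of-ratios scaling, trained against control gave 0.45 for Egr1, 0.84 for Egr2 and 0.30 for Nab2 on the log2 scale. Arc, an immediate early gene of synapses that is reported as an Egr target, stood at 108.9 ± 11.7 FPKM in trained, 57.8 ± 9.55 in naive and 52.7 ± 31.0 in control libraries (SD, n = 3 each), with control replicate 1 at 88.4. Without control replicate 1, Egr1 too was higher in every trained than in every control library. The count for trained against control was then 4 of 6, where 18.6% of all genes met this with only 2 controls. The log2 fold changes of Egr1, Egr2 and Nab2 for trained against control were then 0.59, 1.08 and 0.41, with limma adjusted p of 0.147, 0.117 and 0.0940. Without control replicate 2 instead, they were 0.37, 0.59 and 0.19, with a limma adjusted p of 0.974 for each. Without control replicate 1, Nab2 was also higher in every naive than in every control library (log2 fold change 0.23, limma adjusted p = 0.136, where 22.5% of all genes were higher without overlap), and in both H2A.Z shRNA groups than in the controls, against 12.2% (log2 fold change 0.32). Without control replicate 2 instead, the log2 fold change of Nab2 was 0.013 for naive against control (limma adjusted p = 0.968) and 0.10 for both groups against control (limma adjusted p = 0.769). With naive replicate 2 left out too, Nab2 was again the sole member higher without overlap in these comparisons, against 28.1% and 13.2% of all genes, and trained against naive again gave 4 members, against 9.74%. With trained replicate 3 alone left out, trained against naive gave 0.62 for Egr1, 0.56 for Egr2 and 0.41 for Egr4 (limma adjusted p = 0.987 for each).

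**Figure D4:**
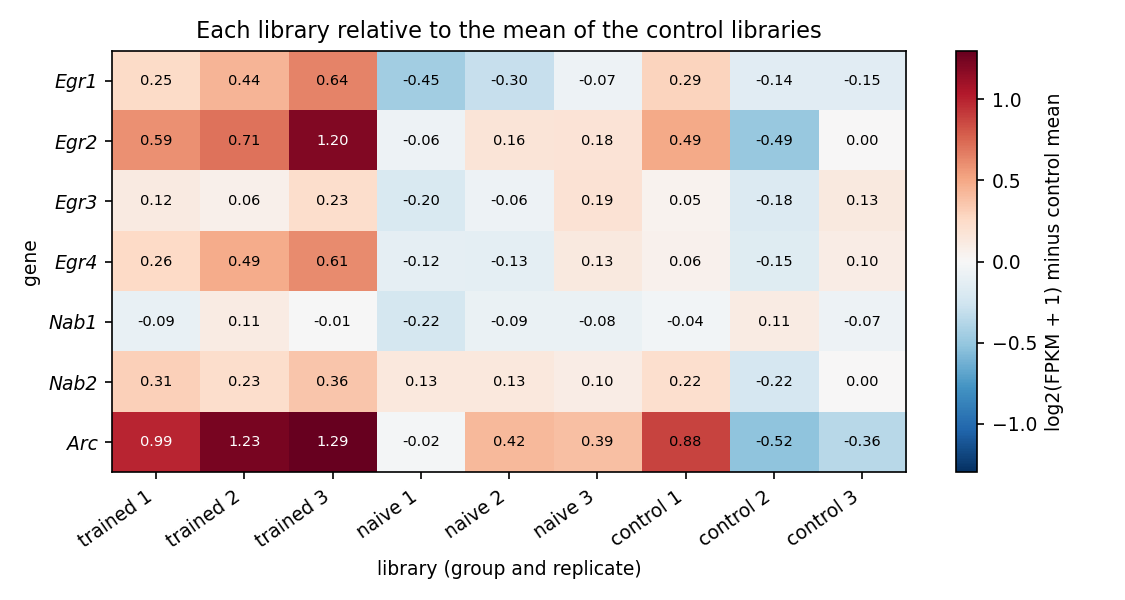
Each cell gives log2(FPKM + 1) of a gene in a library minus the mean of the 3 control libraries (colour scale, same unit). Trained columns are above 0 for Egr1, Egr2, Egr3, Egr4, Nab2 and Arc, and control replicate 1 is the highest control for Egr1 (0.29), Egr2 (0.49) and Arc (0.88), while control replicate 2 is as far below the control mean for Egr2 (-0.49).

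Egr1 made up 59.7% to 62.7% of the summed FPKM of the 4 Egr genes in trained, 53.9% to 54.5% in naive and 53.8% to 62.1% in control libraries. Egr3 made up 25.5% to 29.4% in trained, 34.6% to 35.2% in naive and 28.3% to 35.4% in control libraries. The trained and naive ranges did not overlap for either share, while control libraries overlapped with both. Shares within a library add up to the whole, so the lower Egr3 share is not separate from the higher Egr1 share. The level of Egr3 itself overlapped between trained and naive libraries. Egr4 had a share of 7.81% to 9.98% in all libraries. The summed Egr level was 161 to 201 FPKM in trained, 108.9 to 142 in naive and 123 to 159 in control libraries, and the summed Nab level was 23.8 to 24.8, 21.0 to 21.7 and 19.2 to 22.9 FPKM in the same order. The ratio of these sums was 6.74 to 8.10 in trained, 5.18 to 6.64 in naive and 6.37 to 6.92 in control libraries. These sums and shares are descriptions of the members and were not tested.

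**Figure D5:**
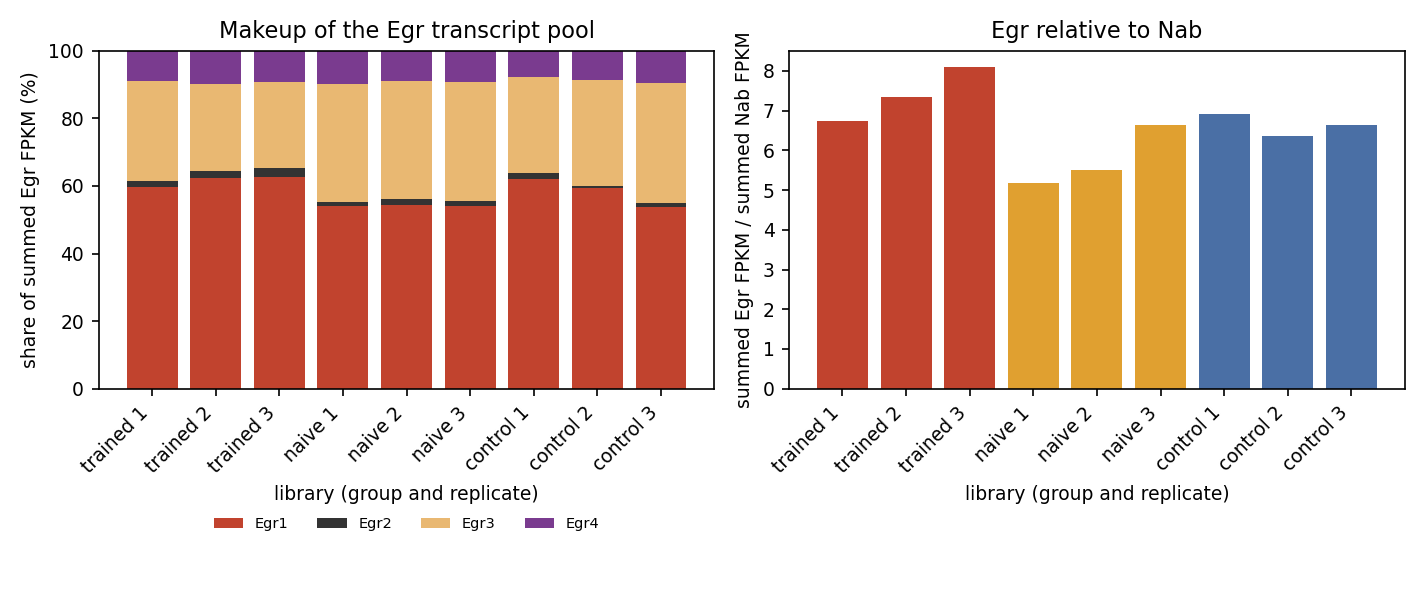
Left, share of each gene in the summed FPKM of the 4 Egr genes (y axis, percent) by library; right, summed Egr FPKM divided by summed Nab FPKM (y axis, ratio, from 0). The Egr1 share is 53.9% to 54.5% in the naive libraries and at least 59.7% in the trained ones, and the ratio to Nab is highest in trained replicate 3, at 8.10.

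Other immediate early transcription factor genes are switched on by the same kinases. Of 21 in the list, 20 were in the table and 19 were tested, and 0 passed in any comparison. For trained against naive 15 of 19 lay above 0 (median 0.06 on the log2 scale), and 5 had ranges that did not overlap and were higher (5.79% of all genes). For trained against control 17 of 19 lay above 0 (median 0.30), and 8 were higher without overlap (6.40% of all genes). Fos, a subunit of AP-1, stood at 10.5 ± 2.55 FPKM in trained, 6.21 ± 0.839 in naive and 4.76 ± 1.31 in control libraries. Per1, a clock gene that activity also induces, stood at 19.3 ± 0.488, 13.9 ± 0.669 and 13.9 ± 2.47, and the nuclear receptor gene Nr4a3 at 14.7 ± 0.998, 11.2 ± 0.495 and 11.8 ± 1.23 in the same order (SD, n = 3 each). For these 3 genes each trained library was above every other library. Btg2, which encodes an antiproliferative factor, stood at 6.43 ± 0.453, 6.33 ± 0.630 and 4.38 ± 0.981, so that both H2A.Z shRNA groups lay above the controls, as for 2.94% of all genes. Limma adjusted p for trained against control was 0.504 for each of these 4 genes. Genes named here and from the lists below are those with the smallest p for trained against control, up to 4 per list. Their separation from controls thus follows in part from how they were picked.

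Among 22 genes that act upstream of Egr promoters (ERK pathway kinases, SRF with its partners, and CREB with its coactivators), 0 passed in any comparison. Their median log2 fold change was -0.04 for trained against naive and 0.08 for trained against control. Elk4, an SRF partner, stood at 7.54 ± 0.123 FPKM in trained, 6.34 ± 0.470 in naive and 6.51 ± 0.447 in control libraries, and each trained library was above every other. Trained libraries were above all naive ones for 5.79% of all genes and above all control ones for 6.40%. Elk3, a partner that can repress, stood at 2.44 ± 0.191, 2.60 ± 0.187 and 1.93 ± 0.107, with both shRNA groups above all controls, as for 2.94% of all genes. Camk4, a calcium-dependent kinase that acts on CREB, stood at 8.40 ± 1.36, 6.89 ± 0.376 and 10.4 ± 1.95 (SD, n = 3 each). Limma adjusted p for trained against control lay between 0.637 and 0.671 for these 3 genes.

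Of 10 genes reported as Egr targets in neurons, 9 were tested and 0 passed in any comparison. For trained against naive 4 of 9 lay above 0 (median -0.05 on the log2 scale). For trained against control 5 of 9 were above 0, with a median of 0.06. The list does not set apart targets that Egr factors raise or lower, so these shares and medians are descriptions only. Arc had log2 fold changes of 0.91 (SE 0.32, limma adjusted p = 0.591) and 1.17 (SE 0.32, limma adjusted p = 0.557) in these comparisons. Syn1, which encodes a protein of synaptic vesicles, was lower in every trained and naive library than in every control one. Trained libraries were below all control ones for 6.08% of all genes, and naive libraries were for 8.23%. Syn1 stood at 102.5 ± 2.37, 100.3 ± 2.74 and 109.6 ± 1.43 FPKM in trained, naive and control libraries. Its log2 fold change of trained against control was -0.10 (SE 0.04, limma adjusted p = 0.642). Gabra4, a GABA-A receptor subunit gene, stood at 33.7 ± 2.65, 35.7 ± 2.15 and 31.0 ± 3.11. Psmb9, an immunoproteasome subunit gene, stood at 3.55 ± 1.62, 10.4 ± 10.5 and 1.80 ± 0.531 (SD, n = 3 each). Each naive library was above every control library for Psmb9, as for 11.2% of all genes, and its naive libraries differed widely from each other.

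Of 13 NuRD genes 0 passed in any comparison. The median log2 fold change was -0.03 for trained against naive and 0.05 for trained against control. Chd4, the remodelling ATPase of NuRD with which Nab2 is known to interact, stood at 31.2 ± 1.65 FPKM in trained, 33.0 ± 1.71 in naive and 29.4 ± 0.775 in control libraries, with each naive library above every control library, as for 11.2% of all genes. Mbd3 stood at 39.1 ± 1.52, 42.2 ± 0.820 and 41.8 ± 2.78, Mta2 at 16.1 ± 0.446, 16.0 ± 0.968 and 15.3 ± 0.839, and Gatad2a at 5.59 ± 0.255, 4.996 ± 0.525 and 5.20 ± 0.293 (SD, n = 3 each). Of 7 other zinc finger genes whose products bind GC-rich sites, 5 were tested and 0 passed. Their medians were -0.05 and 0.07 in these comparisons. Sp3 stood at 17.6 ± 0.730, 18.2 ± 0.201 and 15.9 ± 1.37, Sp2 at 4.76 ± 0.185, 5.12 ± 0.625 and 5.30 ± 0.311, Sp4 at 4.31 ± 0.309, 4.48 ± 0.290 and 4.04 ± 0.306, and Sp9 at 1.35 ± 0.139, 1.13 ± 0.189 and 1.23 ± 0.194 FPKM.

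The genes most like each member were sought by Pearson's r of log2(FPKM + 1) over the 9 libraries, which share group structure and depth, so that r is a description only. Mbnl2 (r = 0.97, rho = 0.97), Zfp276 (r = 0.94, rho = 0.93) and Dusp5 (r = 0.94, rho = 0.95), a phosphatase gene of the ERK pathway, were nearest to Egr1. Dusp5 stood at 10.05 FPKM in trained, 6.21 in naive and 7.69 in control libraries on average. Mbnl2, with the highest r, differed less, at 65.7, 59.4 and 61.5 FPKM in the same order. Nearest to Egr2 were Zfp715 (r = 0.96, rho = 0.97), Arc (r = 0.94, rho = 0.97) and Per1 (r = 0.94, rho = 0.92). Egr4 was nearest to Zfp715 (r = 0.93, rho = 0.92), the nuclear receptor gene Nr4a1 (r = 0.93, rho = 0.83) and Mbnl2 (r = 0.92, rho = 0.73). For Egr3 the nearest genes were Rps19bp1, Cul3 and Tmem263 (r between 0.94 and 0.95), for Nab1 they were Plxnb3, Cpeb2 and Spry2 (r = 0.95 for each), and for Nab2 they were Wapal, Smad4 and Chfr (r between 0.97 and 0.98).

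Summed levels of markers of other cells varied between libraries as well. The 15 dentate gyrus granule neuron markers summed to 241 to 385 FPKM in trained, 314 to 401 in naive and 178 to 330 in control libraries. Their median log2 fold change was -0.34 for trained against naive and 0.36 for trained against control. The median was 0.72 for naive against control, with 15 of 15 above 0, against 55.1% of all genes. Of the 15, 10 had an unadjusted limma p under 0.05 and a higher level, against 9.81% of all genes. For both H2A.Z shRNA groups against control the median was 0.56. With the mean of these markers per library as a covariate, the log2 fold changes of Egr1, Egr2 and Egr4 were 0.78, 0.85 and 0.47 for trained against naive (limma adjusted p between 0.223 and 0.268). For trained against control they were 0.37, 0.71 and 0.48 (limma adjusted p between 0.538 and 0.684). With this covariate Nab2 gave 0.26 for trained against naive, 0.22 for trained against control and 0.09 for both groups against control, the last with a limma unadjusted p of 0.366 against 0.0315 without the covariate. The 9 CA1 pyramidal neuron markers, none of them at 0, summed to 363 to 451 FPKM in trained, 339 to 390 in naive and 391 to 532 in control libraries, with medians of 0.23 for trained against naive and -0.09 for trained against control. In the first comparison 8 of 9 lay above 0, against 41.3% of all genes, and in the second 1 of 9, against 47.2%. For naive against control the CA1 median was -0.31, with 4 of 9 lower without overlap, against 8.23% of all genes. For both groups against control the CA1 median was -0.20. The part of CA1 markers in the Egr and Nab differences was not tested. The 9 T lymphocyte markers in the table, of interest since T cells express Egr2 and Egr3, summed to 1.15 to 3.64 FPKM in trained, 0.523 to 2.23 in naive and 0.288 to 1.07 in control libraries. Each trained library was thus above every control library in this low sum, by a small margin. No T cell marker reached the filter for testing, and the part of T cell markers was not tested. The 12 microglial markers summed to 293 to 436, 300.3 to 580 and 235 to 290.2 FPKM in trained, naive and control libraries. Each H2A.Z shRNA library was thus above every control library in this sum, trained replicate 1 by a small margin. In the mean of log2(FPKM + 1) over these markers, trained replicate 1 (4.28) was below control replicate 3 (4.32). Of the 12 markers, 5 were higher without overlap in both groups against control, as were 2.94% of all genes. The microglial median was 0.37 for trained against control, 0.48 for both groups against control and -0.12 for trained against naive. The part of microglial markers was not tested. Choroid plexus markers, 8 genes, summed to 45.5 to 107.4 FPKM in trained, 12.2 to 30.8 in naive and 40.2 to 799.04 in control libraries, with control replicate 3 the highest. The 7 endothelial markers summed to 38.9 to 44.3 FPKM in trained, 46.99 to 57.2 in naive and 38.0 to 49.4 in control libraries. Trained and naive libraries thus did not overlap in either sum, with choroid plexus markers higher and endothelial markers lower in trained libraries, and the part of both was not tested.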

How the data were processed

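Polyadenylated RNA of 9 CA1 libraries was sequenced as 50 bp paired-end reads from directional libraries, per the labels. Per the submitters' processing notes, FastQC, TopHat 1.4.0, Cufflinks and Cuffdiff were used with mm10. The authors deposited FPKM per gene and library, without counts; which step wrote the table, and with what annotation, is not stated there. Of 24489 rows, 27 with names turned into dates and 5649 at 0 in every library were left out. Values were transformed to log2(FPKM + 1), and the 12327 genes whose mean reached 1 FPKM were tested in 1 fit of 3 groups with limma 3.58.1 (R 4.3.3; trend, 6 residual and 2.72 prior degrees of freedom, two-sided, Benjamini-Hochberg adjustment over all genes tested, threshold 0.05). The files do not give the depth in counts. Depth steps, exact permutation tests, motifs and figures used Python 3.11.15. The code was tested on simulated data.

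The members and lists were chosen with earlier results of these data known. Named genes are the members, up to 4 per list with the smallest p for trained against control, genes of a list past the threshold, Arc, H2afz and H2afv, and the 3 nearest genes by r; predicted genes were not named, and some genes are not reported here. Sgk1 is named as the 1 gene called, after its values were seen. Alternatives changed the scaling (median of ratios or quantile), the pseudocount (0.1), the filter (none, or 5 FPKM), the fit (array weights, robust prior, only the groups compared, dentate marker covariate) and the libraries used. Promoter sequences are from RefSeq (GRCm38.p6), matched by symbol for 4 of 6 members. Replicate numbers are in accession order and carry no pairing.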

Additional observations from a re-analysis of the deposited data

How the results depend on the processing

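No member passed the threshold under any alternative, the lowest limma adjusted p being 0.0914 for Nab2 with both H2A.Z shRNA groups against control, and 0.0940 for Nab2 in trained against control, each without control replicate 1. For trained against naive every alternative gave estimates above 0 for all 6 members, and for trained against control for Egr1, Egr2, Egr3, Egr4 and Nab2. Estimates near 0 changed sign. Nab1 in trained against control (0.00) was -0.0069 with quantile normalization, -0.0057 with array weights and -0.015 without the pair control replicate 1 and naive replicate 2, and -0.049 to 0.058 over single libraries left out. In naive against control, the dentate covariate gave -0.14 for Egr2, 0.011 for Egr4 and -0.043 for Nab2. Leaving out the pair of libraries gave 0.017 for Egr3 and 0.032 for Egr4. Leaving out 1 library gave -0.15 to 0.34 for Egr2, -0.13 to 0.063 for Egr3 and -0.12 to 0.0097 for Egr4. With both groups against control, the dentate covariate gave -0.018 for Egr1 and 0.0059 for Nab1, and Egr3 ranged from -0.032 to 0.12 over libraries left out. The cause of these changes was not tested. No paired analysis was possible because the labels give no replicate numbers shared between groups.

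Calls over all genes, 1 for trained against naive and 1 for trained against control, and 0 for the other comparisons, moved more. For trained against naive they were 2 with the dentate covariate or only the groups compared, and 0 to 25 over libraries left out. For trained against control they were 0 with no filter or the dentate covariate, 6 without the pair of libraries, 5 with only the groups compared, and 0 to 25 over libraries left out. For naive against control they were 2 with a filter of 5 FPKM, 3 with array weights, 4 without the pair, and 0 to 15 over libraries left out. For both groups against control they were 3 with array weights, 5 without the pair, and 0 to 37 over libraries left out. The highest counts came without naive replicate 1 for trained against naive and without control replicate 1 for the other comparisons, and without trained replicate 3 both trained comparisons had 0. Chosen after seeing the data, counts of members higher without overlap were 4 of 6 for trained against naive (5.79% of all genes) and 4 of 6 for trained against control (18.6%) without control replicate 1. They were 1, Nab2, in naive against control (22.5%) and 1 in both groups against control (12.2%), also with naive replicate 2 left out, which is near the share of all genes. Egr2, the lowest member, was below the filter of 5 FPKM and has no value there. With a pseudocount of 0.1 its log2 fold change was 0.98 for trained against naive and 1.16 for trained against control. Egr2 rested on the fewest estimated fragments of the 6 members, and the part of depth in its spread was not tested.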
